A study of Tribolium castaneum with 8 samples.

Results

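Feeding stages of the red flour beetle Tribolium castaneum, the larva and the adult, were compared with the non-feeding stages, the embryo and the pupa. The comparison used 4 RNA sequencing libraries of the 8 samples of the series, 1 library per stage. The other 4, bisulfite libraries of DNA, were not analysed here. All were whole bodies of the laboratory strain GA-1 reared at 30 °C in whole wheat flour with 5% yeast, with no treatment and no genetic change named in the labels. The larvae were late larvae about 20 days old, the adults 3 days old, the embryos 3 days old and the pupae 3 days old. The labels name the stages and do not state feeding. The 2 sides follow from what is known of the beetle, and late larvae can stop eating before they pupate, so whether these larvae were still eating is not given. Sex, and whether the RNA came from pooled animals, are not given either.

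A flour beetle eats as a larva and as an adult and lives on stored material as an embryo and as a pupa. The midgut of the eating stages secretes peptidases, glycosidases and lipases into a lumen lined by the peritrophic matrix, a sheet of chitin and protein that surrounds the food. In beetles of this family much of the protein digestion is done by cysteine peptidases of the cathepsin B and L types in the anterior midgut and by serine peptidases farther back. Midgut and fat body also hold the cytochrome P450 and conjugating enzymes that act on plant compounds. Embryos and pupae build the organs and the cuticle of the next stage, under pulses of the moulting hormone ecdysone.

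The libraries held 3.58 M unique reads in genes in the larva and 3.09 M in the adult, against 3.24 M in the embryo and 3.67 M in the pupa. Values are RPKM, reads scaled by the length of the gene model and by the counted reads of the library, as deposited. The 20 most abundant genes of each library took 21.7% of the reads in the larva and 14.0% in the adult, against 6.65% in the embryo and 10.2% in the pupa. Larval RNA was led by storage proteins: hexamerin 1B (TC005377) had 20318 RPKM in larva and 19.2 in adult, against 11.2 in embryo and 56.6 in pupa. Of 14422 genes listed, the 13257 with at least 1 RPKM in any library were compared. A gene was called higher on one side where its lower library of that side exceeded its higher library of the other side by at least 2-fold on log2(RPKM + 1). With 1 library per stage there is no replicate check. The 2 libraries of a side are different stages and not replicates, and the smallest two-sided exact permutation p of a 2-against-2 split is 0.333, so no test is given. Ratios below are of RPKM, lower library of the high side over higher library of the low side, with exact conditional 95% binomial intervals that cover counting error only. In whole bodies, more cells of a type and more RNA per cell cannot be told apart.

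By this rule 756 genes (5.70%) were higher on the feeding side and 587 (4.43%) on the non-feeding side. The other 11914 (89.9%) passed in neither direction. Without a minimum fold the order of the sides turned round: 1964 genes (14.8%) had both feeding libraries above both non-feeding ones, and 4888 (36.9%) had both non-feeding libraries above. A 4-fold margin was passed by 319 genes on the feeding side and 93 on the non-feeding side, and a 16-fold margin by 52 and 10. The called feeding genes took 9.87% of reads in the larva and 5.88% in the adult, against 0.406% in the embryo and 0.704% in the pupa. The called non-feeding genes took 1.84% and 1.46% of reads in larva and adult, against 8.12% and 8.15% in embryo and pupa. The rule fixes the direction of both sets of shares, so only their size is described here.

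**Figure D1:**
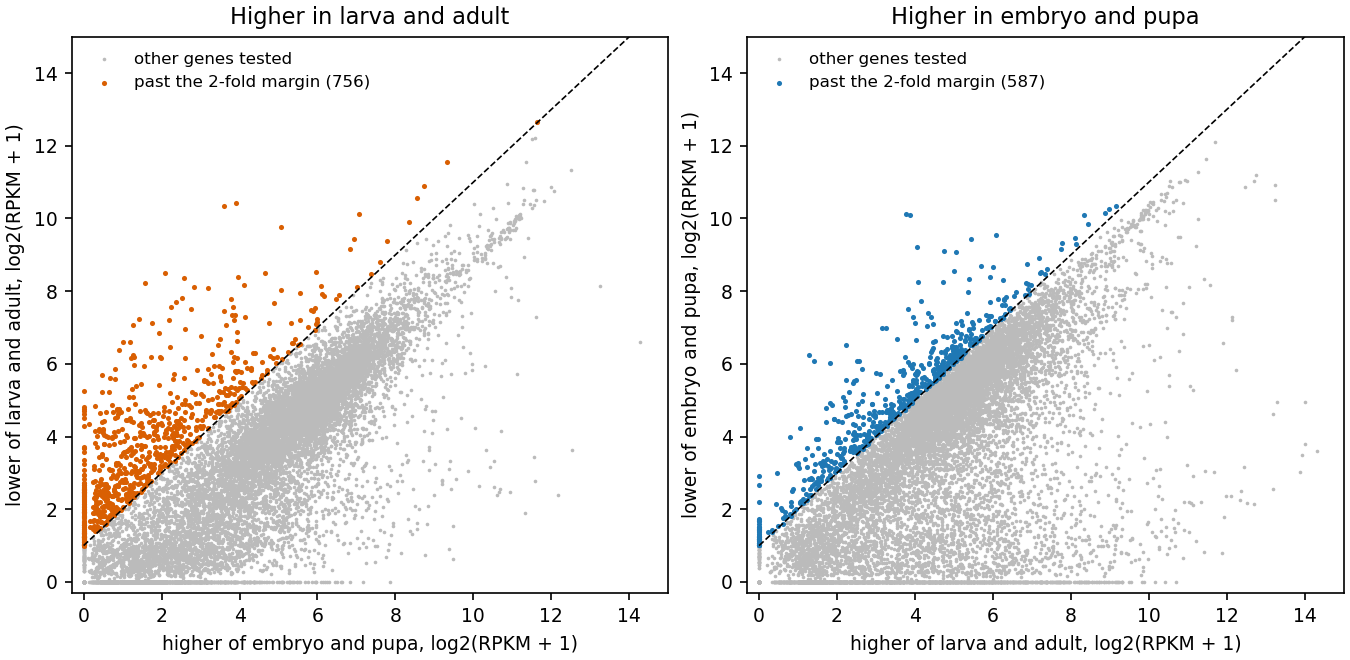
Lower library of one side (vertical axis) against the higher library of the other side (horizontal axis), in log2(RPKM + 1), for the 13257 genes compared; left, larva and adult over embryo and pupa; right, embryo and pupa over larva and adult. Points above the dashed line passed the 2-fold margin, 756 on the left and 587 on the right, and those on the left lie farther above it, with 52 past 16-fold against 10.

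These counts depend on how libraries are scaled. The median gene was 0.31 lower on the feeding side on the log2 scale, in libraries where a few abundant genes took more of the reads of larva and adult. Rescaling by median ratios moved that median to 0.09 and gave 977 genes on the feeding side and 266 on the non-feeding side, so that 78.6% of the calls were on the feeding side in place of 56.3%. Of the 587 non-feeding calls 266 stayed called under it. Leaving the 20 most abundant genes of every library, 53 genes together, out of all 4 totals gave 880 and 443 genes, with 434 of the 587 retained. The 53 held 24.5% of reads in the larva and 17.1% in the adult, against 8.32% in the embryo and 12.8% in the pupa. Both rescalings raise larva and adult relative to embryo and pupa, so by construction neither can remove a feeding call. Of the genes at the edge of the rule, TC009161, a Juvenile hormone-inducible protein just inside it, had 10.9 RPKM in larva and 9.11 in adult, against 0.255 in embryo and 4.05 in pupa. TC009659, another Juvenile hormone-inducible protein, lay just outside with 25.7 RPKM in larva and 41.7 in adult, against 1.08 in embryo and 12.4 in pupa. On the other side TC012571, a Mob4-like protein, lay just inside with 35.1 and 28.6 RPKM in larva and adult, against 121 and 71.2 in embryo and pupa. TC000475, annotated as cell death activator CIDE-B, lay just outside with 18.3 and 10.9 RPKM in larva and adult, against 70.0 and 37.7 in embryo and pupa.

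Among the most widely separated feeding genes was a cellular fatty acid-binding protein-like gene (TC001310), of a family that carries lipids inside cells, with 638 RPKM in larva and 301 in adult, against 1.95 in embryo and 1.73 in pupa. Its ratio was 154-fold (52.3 to 749). A cytochrome P450 annotated as 9F2 (TC006445) had 2106 RPKM in larva and 1306 in adult, against 11.2 in embryo and 3.60 in pupa, a ratio of 117-fold (89.4 to 155). Both were high in larva and adult alike. TC012702, 4-hydroxyphenylpyruvate dioxygenase, an enzyme of tyrosine breakdown, had 138 RPKM in larva and 151 in adult, against 0.539 in embryo and 2.38 in pupa, and its ratio was 57.9-fold (31.3 to 121). A melanin-inhibiting protein (TC006342) was higher in the adult than in the larva, with 279 RPKM in larva and 611 in adult, against 6.08 in embryo and 3.07 in pupa and a ratio of 45.8-fold (29.8 to 74.4). A scavenger receptor cysteine-rich protein (TC007945) was higher in the larva, with 983 RPKM in larva and 273 in adult, against 5.65 in embryo and 8.17 in pupa and a ratio of 33.5-fold (21.0 to 56.9). Arylsulfatase b (TC015151), an enzyme that removes sulphate groups, had 254 RPKM in larva and 61.4 in adult, against 1.47 in embryo and 1.30 in pupa, a ratio of 41.8-fold (21.0 to 97.6).

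**Figure D2:**
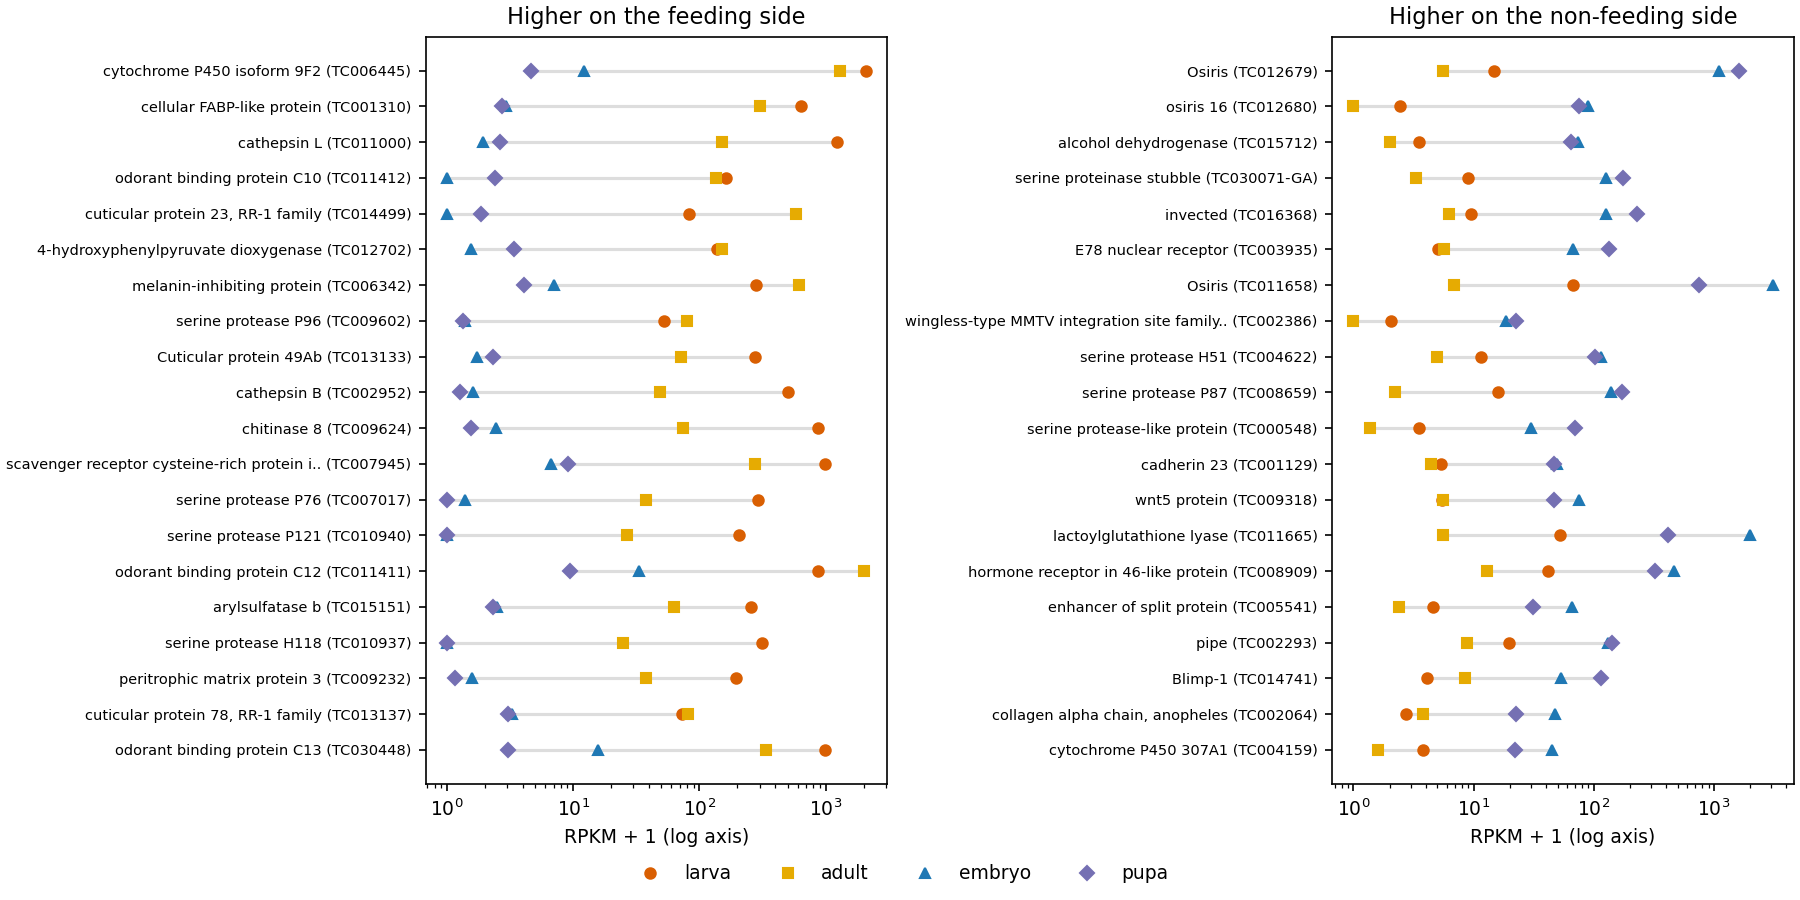
RPKM + 1 (log axis) in each library of the 20 named genes with the largest margin on the feeding side and the 20 on the non-feeding side. By the rule larva and adult lie above embryo and pupa in every gene of the left panel, but often far apart from each other. In the right panel embryo and pupa lie above larva and adult, again by the rule.

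Of 65 digestive proteases 19 (29.2%) were higher on the feeding side, beside 5.70% of all genes, and 5 (7.69%) on the non-feeding side, beside 4.43%. Their median difference of side means was 0.99 on log2(RPKM + 1), against -0.31 over all genes. Cathepsin L (TC011000), a lysosomal-type cysteine peptidase that works in the gut lumen in these beetles, had 1231 RPKM in larva and 149.7 in adult, against 0.937 in embryo and 1.66 in pupa. Its ratio was 90.5-fold (41.2 to 248). Cathepsin B (TC002952), a related cysteine peptidase, had 504 RPKM in larva and 47.6 in adult, against 0.612 in embryo and 0.270 in pupa, and its ratio was 77.8-fold (21.2 to 648). In both cathepsins the larva was well above the adult. Chymotrypsin-like proteinase 5A (TC013709), a serine peptidase, had 1419.8 RPKM in larva and 26.2 in adult, against 1.19 in embryo and 0.698 in pupa, a ratio of 22.1-fold (7.22 to 109.9).

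Adult levels were low in most digestive proteases. Of the 19 called, 15 had the larva at least 2-fold above the adult and 1 had the adult above the larva. Chymotrypsin-like proteinase 6C (TC015618) had 321 RPKM in larva and 10.9 in adult, against 0 in embryo and 0 in pupa. Another cathepsin L (TC009365) had 874 RPKM in larva and 6.39 in adult, against 1.82 in embryo and 1.07 in pupa, so its adult level passed the non-feeding level by little. The exception was a cathepsin B (TC005956) with 3.71 RPKM in larva and 9.25 in adult, against 0 in embryo and 0 in pupa. Aminopeptidases cut residues from the ends of peptides, and 5 were called. In 4 of them the larva was at least 2-fold above the adult, as in TC001262 with 167 RPKM in larva and 14.9 in adult, against 0.549 in embryo and 0 in pupa. TC001258 was within 2-fold, with 27.1 RPKM in larva and 23.4 in adult, against 0 in embryo and 0.837 in pupa. The summed RPKM of the whole list was 10740.1 in the larva and 3122 in the adult, against 2509 in the embryo and 3875 in the pupa, so adult and pupa did not separate in the sum.

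Cathepsin D (TC004989), the aspartic peptidase of lysosomes and the most abundant gene of the list, was not called, with 1528 RPKM in larva and 205 in adult, against 170.0 in embryo and 526 in pupa. Its adult level lay below the pupal one. Of the 5 list members called on the non-feeding side, the most abundant were annotated as carboxypeptidase A, a metallopeptidase, and stood opposite to the list. TC005905 had 59.2 RPKM in larva and 6.10 in adult, against 334 in embryo and 749 in pupa, a ratio of 5.64-fold (4.95 to 6.45). TC005500 had 25.1 RPKM in larva and 32.4 in adult, against 486 in embryo and 119 in pupa, a ratio of 3.69-fold (3.08 to 4.44). The other 3 were trypsin-like models whose highest level was 5.63 RPKM, in TC030609-GA. Carboxypeptidase A names were also found on the feeding side, where TC015782 had 302 RPKM in larva and 6.03 in adult, against 0.997 in embryo and 0.661 in pupa.

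Glycosidases and lipases gave 9 of 36 (25.0%) on the feeding side and 0 on the non-feeding side, with a median difference of 2.25. Lysosomal acid lipase (TC011635), which cleaves lipid esters, had 27.4 RPKM in larva and 24.5 in adult, against 0 in embryo and 0.485 in pupa, a ratio of 50.6-fold (13.6 to 424), at nearly the same level in both eating stages. A trehalase (TC006698), which splits the blood sugar trehalose, had 149 RPKM in larva and 17.5 in adult, against 3.71 in embryo and 1.15 in pupa. Lipase 1 (TC012841) had 51.4 RPKM in larva and 8.28 in adult, against 0.394 in embryo and 0 in pupa. Of the beta-glucosidases, 3 were called, among them TC016296 with 21.3 RPKM in larva and 3.04 in adult, against 0.619 in embryo and 0.364 in pupa. Alpha-amylase (TC000937), the starch-cutting enzyme, had 678 RPKM in larva and 1.98 in adult, against 1.26 in embryo and 0.739 in pupa, and the most abundant beta-glucosidase (TC010052) had 505 RPKM in larva and 1.72 in adult, against 0.409 in embryo and 0.361 in pupa. Both were larval, with an adult level within a few reads of the embryo and pupa, so neither was called. Of the 9 called, 6 were at least 2-fold higher in the larva than in the adult, 2 were higher in the adult and 1 was within 2-fold.

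Of all the lists, peritrophic matrix and chitin enzymes had the highest share on the feeding side, 17 of 35 genes (48.6%) with 0 on the non-feeding side and a median difference of 2.66. Peritrophic matrix protein 3 (TC009232), a chitin-binding protein of the gut lining, had 193 RPKM in larva and 36.5 in adult, against 0.572 in embryo and 0.168 in pupa, a ratio of 63.8-fold (21.5 to 312). Peritrophic matrix protein 2-B (TC003275) had 1864 RPKM in larva and 41.1 in adult, against 0.584 in embryo and 1.55 in pupa, a ratio of 26.6-fold (8.71 to 132). All 6 genes annotated as peritrophic matrix proteins of types 1 to 3 that were called had more in the larva. Peritrophic matrix protein 5-A (TC003273) had the adult higher, with 4.25 RPKM in larva and 24.6 in adult, against 0.275 in embryo and 0 in pupa.

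Chitinases, which cut chitin, and chitin deacetylases, which remove its acetyl groups, stood beside them. Chitinase 8 (TC009624) had 863 RPKM in larva and 72.6 in adult, against 1.45 in embryo and 0.548 in pupa, a ratio of 50.2-fold (24.1 to 126). Chitin deacetylase 8 (TC014147) had 147 RPKM in larva and 4.87 in adult, against 0 in embryo and 0.722 in pupa, and chitin deacetylase 6 (TC013662) had 65.5 RPKM in larva and 13.1 in adult, against 0 in embryo and 0.225 in pupa. Chitinase 3 (TC009629) was the one called chitinase with a higher adult level, at 3.19 RPKM in larva and 8.53 in adult, against 0 in embryo and 0 in pupa. The list overlaps the cuticle list: 3 of its called genes are cuticular proteins analogous to peritrophins. Of these TC012766 had 186 RPKM in larva and 715 in adult, against 47.3 in embryo and 60.1 in pupa. Of the 17 called genes, 12 were at least 2-fold higher in the larva, 3 in the adult, and 2 were within 2-fold.

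In transporters of sugars, amino acids and other solutes larva and adult were mostly close. The feeding side was higher in 9 of 42 (21.4%) and the non-feeding side in 1, with a median difference of 1.16. Matching on any name field gave 37 of 337 on the feeding side and 1 on the non-feeding side. The median of that wider match was 0.45, so both share and median were smaller in it. In 8 of the 9 larva and adult were within 2-fold of each other, and in 1 the adult was higher. A sugar transporter (TC015436) had 25.0 RPKM in larva and 14.5 in adult, against 0.626 in embryo and 1.48 in pupa, a ratio of 9.82-fold (4.70 to 23.7). An organic cation transporter (TC014156) had 7.64 RPKM in larva and 11.1 in adult, against 0.421 in embryo and 0.558 in pupa, a ratio of 13.7-fold (4.36 to 69.2). The amino acid transporter TC002616 had 26.4 RPKM in larva and 62.3 in adult, against 0.642 in embryo and 4.35 in pupa and was the one higher in the adult. The abundant amino acid transporter subunit CD98hc (TC009845) was not called and had 71.0 RPKM in larva and 91.7 in adult, against 157 in embryo and 94.4 in pupa. A monocarboxylate transporter (TC006428) was higher on the non-feeding side with 2.82 RPKM in larva and 1.03 in adult, against 18.0 in embryo and 8.66 in pupa, a call that median-ratio rescaling removed.

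Cytochrome P450 enzymes, haem enzymes that oxidise hormones and foreign compounds, gave the most calls of any list. The feeding side was higher in 42 of 123 (34.1%) and the non-feeding side in 2, with a median difference of 1.75. Among the 42, 21 were within 2-fold between larva and adult, 12 were higher in the larva and 9 in the adult. CYP4Q2 (TC012500) had 330.3 RPKM in larva and 43.0 in adult, against 1.22 in embryo and 1.8 in pupa, a ratio of 23.9-fold (12.7 to 50.7). The CYP6BQ genes were split between the eating stages: 6BQ5 (TC007314) had 2.15 RPKM in larva and 19.9 in adult, against 0 in embryo and 0 in pupa, while 6BQ11 (TC007321) had 23.6 RPKM in larva and 7.46 in adult, against 0 in embryo and 0.871 in pupa. CYP9Z4 (TC006444) had 92.8 RPKM in larva and 70.0 in adult, against 3.10 in embryo and 27.9 in pupa, with the pupa nearer to the eating stages than the embryo was. The second most abundant P450 of the list after 9F2, annotated only as a P450 monooxygenase (TC008058), was not called and had 1088 RPKM in larva and 461 in adult, against 429 in embryo and 482 in pupa. Reads were counted only where unique, so near-identical P450 copies are undercounted and these levels are uncertain for that reason.

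The P450 genes on the non-feeding side were both of ecdysone synthesis. CYP307A1 (TC004159), the Spook type that acts early in that pathway, had 2.78 RPKM in larva and 0.605 in adult, against 43.7 in embryo and 21.2 in pupa. Its ratio was 7.61-fold (4.51 to 13.7). CYP306A1 (TC001916), the Phantom type, a hydroxylase of the hormone's precursor, had 7.73 RPKM in larva and 4.26 in adult, against 16.6 in embryo and 17.9 in pupa, a ratio of 2.15-fold (1.45 to 3.23). The order of the sides was opposite to that of the 42, and TC001916 lost its call under median-ratio rescaling, under totals without the 20 most abundant genes and after thinning.

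Conjugating enzymes, esterases and drug transporters followed with 11 of 37 (29.7%) on the feeding side and 0 on the non-feeding side. Glutathione S-transferases link foreign compounds to glutathione, and 6B (TC004446) had 16.2 RPKM in larva and 47.3 in adult, against 0 in embryo and 0.414 in pupa, a ratio of 39-fold (6.59 to 1581). An epsilon-class glutathione S-transferase (TC004941) had 4.97 RPKM in larva and 30.7 in adult, against 0 in embryo and 0 in pupa, at least 3.63-fold higher where 3 reads stand for the 0 of each non-feeding library. A sulfotransferase (TC013550), which adds sulphate groups, had 443 RPKM in larva and 571 in adult, against 3.82 in embryo and 193 in pupa. Only its embryo was near 0, and the pupa held enough to bring the ratio to 2.30-fold (2.10 to 2.52). Another sulfotransferase (TC012015) was not called and had 177 RPKM in larva and 2.01 in adult, against 446 in embryo and 59.8 in pupa.

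Odorant-binding and chemosensory proteins, small secreted carriers of hydrophobic molecules found in sensory organs and in other tissues, gave 17 of 63 (27.0%) on the feeding side and 1 on the non-feeding side. Their median difference was 2.11. Odorant binding protein C10 (TC011412) had 163 RPKM in larva and 133 in adult, against 0 in embryo and 1.42 in pupa, a ratio of 94.0-fold (25.6 to 783). C12 (TC011411) had 869.6 RPKM in larva and 2006 in adult, against 32.4 in embryo and 8.38 in pupa, and its ratio was 26.8-fold (19.7 to 37.6). C13 (TC030448) had 990.1 RPKM in larva and 337 in adult, against 14.7 in embryo and 2.05 in pupa, a ratio of 23.0-fold (14.5 to 38.5). The larva led in C13 and the adult in C12.

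The most abundant called gene on the feeding side by its lower library was odorant binding protein C04 (TC008757), of the minus-C subfamily. It had 9608 RPKM in larva and 6498 in adult, against 1955 in embryo and 3172 in pupa, a ratio of 2.05-fold (1.98 to 2.12), so it was abundant in every library and passed the margin by little. Among the 17, 9 were at least 2-fold higher in the adult, 4 in the larva, and 4 were within 2-fold. Odorant binding protein 07 (TC013322) had 1.36 RPKM in larva and 63.1 in adult, against 0 in embryo and 0 in pupa, and chemosensory protein 20 (TC015902) had 4029.9 RPKM in larva and 129 in adult, against 4.11 in embryo and 53.0 in pupa. Odorant binding proteins 2, 3, 08, 19 and 23 were likewise called at 1.36 to 1.96 RPKM in larva and 0 in embryo and pupa. In chemosensory protein 8 a larval level of 1.86 RPKM came from 2 reads, so these calls and that of 07 may rest on few larval reads. The most abundant members in adult and larva other than C04 were not called: chemosensory protein 11 (TC008681) had 32 RPKM in larva and 16387 in adult, against 12.8 in embryo and 46.1 in pupa, and a minus-C odorant binding protein (TC010066) had 10082 RPKM in larva and 283 in adult, against 30.1 in embryo and 9696 in pupa. Chemosensory protein 8 (TC014535) was the one higher on the non-feeding side, with 1.86 RPKM in larva and 1.08 in adult, against 19.5 in embryo and 11.8 in pupa from 19 reads or fewer in each library.

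Odorant and gustatory receptors could hardly be compared at this depth. Of 256 listed receptor genes 46 had 1 RPKM in any library, and only odorant receptor 106 (TC030326) was called, from 4 reads each in larva and adult and 0 in embryo and pupa. The 2 most abundant receptor genes, both gustatory (TC030145 and TC030146), were not called. TC030145 had 6.95 RPKM in larva and 9.73 in adult, against 21.4 in embryo and 20.0 in pupa, with the non-feeding libraries higher.

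Cuticle proteins were called in 21 of 74 (28.4%) on the feeding side and in 0 on the non-feeding side, with a median difference of 2.15. Their larval and adult levels were often unlike each other. Cuticular protein 23 of the RR-1 family (TC014499), a chitin-binding structural protein, had 82.4 RPKM in larva and 582 in adult, against 0 in embryo and 0.873 in pupa. Its ratio was 94.5-fold (16.5 to 3772). Cuticular protein 49Ab (TC013133) had 275 RPKM in larva and 70.8 in adult, against 0.745 in embryo and 1.32 in pupa, a ratio of 53.9-fold (20.7 to 199.8), and cuticular protein 78 (TC013137) had 71.9 RPKM in larva and 80.9 in adult, against 2.30 in embryo and 2.03 in pupa, a ratio of 31.3-fold (12 to 116). Of the 21, 7 were at least 2-fold higher in the larva, 6 in the adult, and 8 were within 2-fold.

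The extremes of the list show how far a gene can be unequal between the eating stages and still pass. The putative cuticle protein CP6 (TC013135) had 17.7 RPKM in larva and 2230.2 in adult, against 6.51 in embryo and 7.03 in pupa, a ratio of 2.52-fold (1.21 to 5.63). A gene annotated as pupal cuticle protein (TC014500) had 1452 RPKM in larva and 6.42 in adult, against 2.03 in embryo and 0.899 in pupa. Pupal cuticle protein 78E (TC013136) was larval in these libraries and was not called, with 3877 RPKM in larva and 2.55 in adult, against 2.43 in embryo and 2.86 in pupa. The stage in the names of TC014500 and TC013136 was not the stage of their highest level here.

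**Figure D3:**
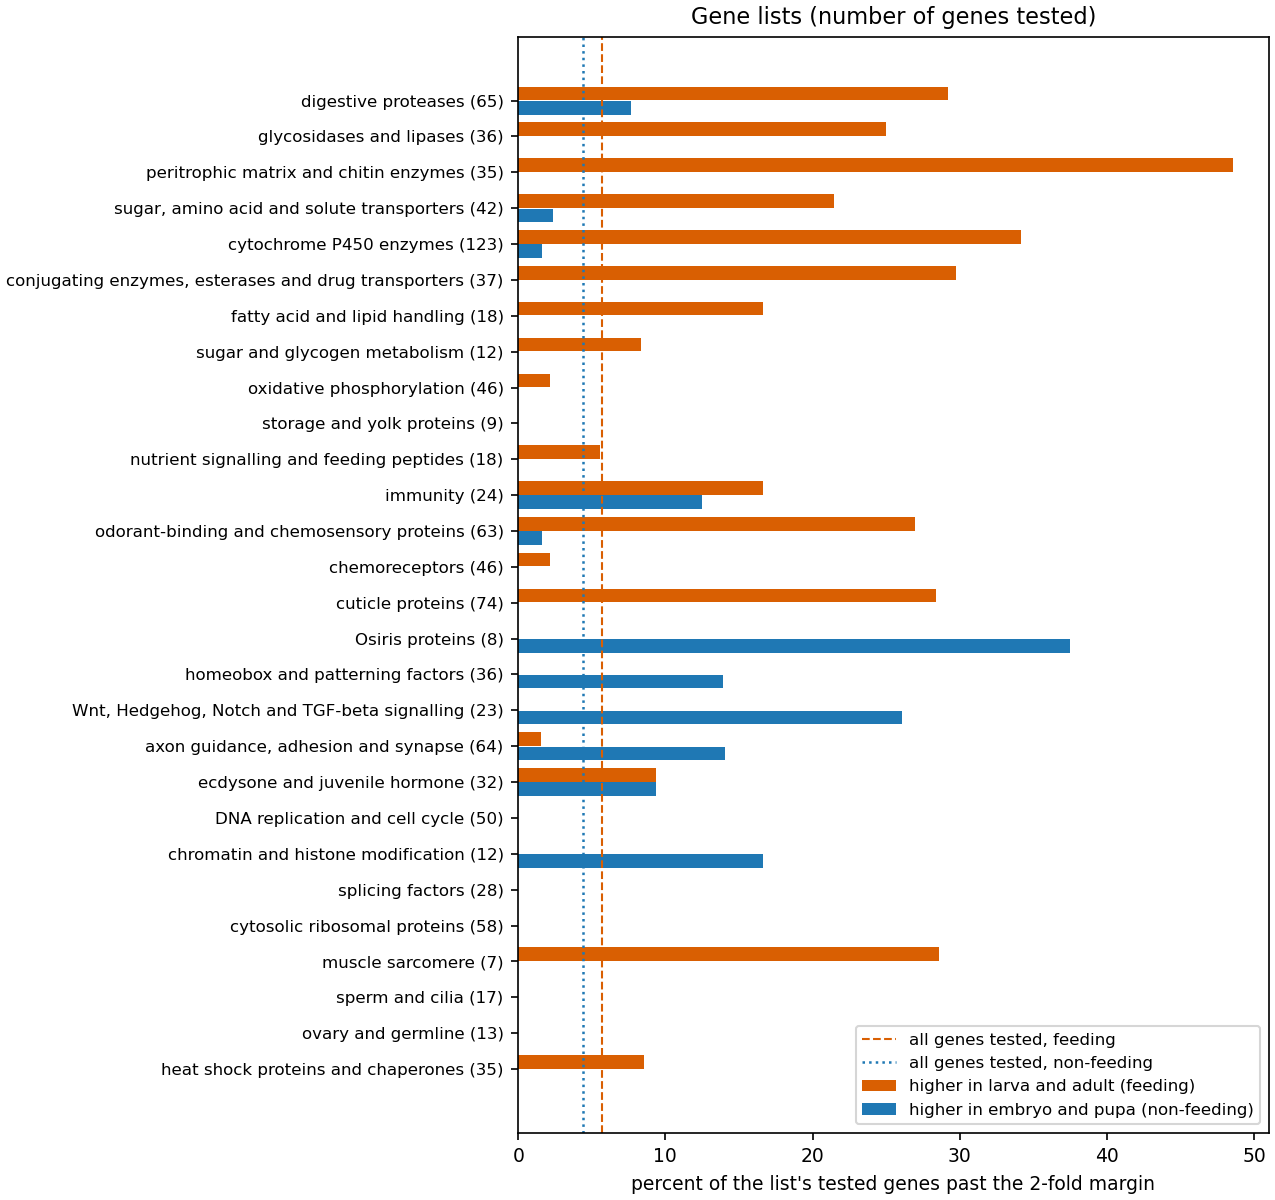
Share of tested genes (percent) called higher on the feeding side (larva and adult) and on the non-feeding side (embryo and pupa) in each gene list, with lines at the shares over all genes, 5.70% and 4.43%. Peritrophic matrix and chitin enzymes reached 48.6% and cytochrome P450 enzymes 34.1% on the feeding side, while Osiris proteins reached 37.5% and Wnt, Hedgehog, Notch and TGF-beta signalling 26.1% on the non-feeding side. These lists were matched on protein descriptions. Matching on any name field gave 26 of 69, 44 of 132, 3 of 8 and 9 of 65, in the same order.

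Metabolism and muscle held a few calls each. Fatty acid and lipid handling had 3 of 18 on the feeding side: both Z9 acyl-CoA desaturases, which put a double bond into fatty acids, and fatty acid synthase, which builds them. Desaturase B (TC016415) had 123 RPKM in larva and 70.5 in adult, against 2.93 in embryo and 14.2 in pupa, a ratio of 4.96-fold (3.68 to 6.78). Desaturase A (TC011471) had 161 RPKM in larva and 6.71 in adult, against 1.45 in embryo and 1.54 in pupa, and fatty acid synthase (TC011522) had 88.4 RPKM in larva and 11.2 in adult, against 2.76 in embryo and 3.73 in pupa. In each of the 3 the larva was higher than the adult. Matching on any name field gave 12 of 86 on the feeding side and 6 on the non-feeding side. The abundant lipid carrier apolipophorin-III (TC015373) was not called, with 3015 RPKM in larva and 1816 in adult, against 286 in embryo and 2459 in pupa, since only the embryo was low.

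Hexokinase (TC000318), the entry enzyme of glucose metabolism, was the one called gene of 12 in sugar and glycogen metabolism, with 24.1 RPKM in larva and 62.2 in adult, against 10.2 in embryo and 4.41 in pupa. Oxidative phosphorylation had 1 of 46 (2.17%), a cytochrome c oxidase subunit (TC030046) with 161 RPKM in larva and 146 in adult, against 13.6 in embryo and 12 in pupa. Its list median was 0.59, and most of its genes overlapped between the sides. In the muscle list 2 of 7 passed, with a median of 1.18. Matching on any name field gave 4 of 115 on the feeding side and 2 on the non-feeding side, with a median of 0.13, so the share does not stand above the 5.70% of all genes in the wider match. Muscle protein 20-like protein (TC007135) had 1243 RPKM in larva and 1109 in adult, against 132 in embryo and 72.6 in pupa, a ratio of 8.39-fold (7.33 to 9.64). Troponin C type IIIa (TC012196), a calcium sensor of the sarcomere, had 268 RPKM in larva and 204 in adult, against 28.7 in embryo and 16.5 in pupa, a ratio of 7.11-fold (5.15 to 10.04). Myosin light chain (TC011769) was not called, with 1975 RPKM in larva and 9665 in adult, against 1462 in embryo and 1846 in pupa.

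Storage and yolk proteins had 0 of 9 called in either direction, although they took 11.8% of reads in the larva and 0.0180% in the adult, against 0.0495% in the embryo and 0.461% in the pupa. Arylphorin (TC005376), a storage protein, had 15723 RPKM in larva and 19.6 in adult, against 10.3 in embryo and 13.1 in pupa, so the adult stood with the non-feeding stages. Of the nutrient signalling and feeding peptides, 1 of 18 (5.56%) was called, a share near that of all genes. This was diuretic hormone 37 (TC002243), a peptide that drives fluid secretion, with 21.8 RPKM in larva and 12.3 in adult, against 4.55 in embryo and 5.17 in pupa, and thinning removed its call. Short neuropeptide F (TC030021), a peptide that affects feeding in other insects, was highest in the adult, with 12.8 RPKM in larva and 206 in adult, against 27.2 in embryo and 24.0 in pupa, and was not called.

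Immune genes were called in both directions, 4 of 24 (16.7%) on the feeding side and 3 (12.5%) on the non-feeding side, beside 5.70% and 4.43% of all genes. Matching on any name field gave the same 4 and 3 calls among 41 genes, so both shares were smaller in it. The median was 0.43 in the wider match and 0.80 in the list. Of those on the feeding side, Gram-negative bacteria binding protein 1 (TC002295), a recognition protein, had 61.7 RPKM in larva and 15.1 in adult, against 0 in embryo and 0.479 in pupa, a ratio of 31.5-fold (8.31 to 267). A thaumatin-like protein (TC000515), of a family with antifungal members, had 495 RPKM in larva and 23.3 in adult, against 0 in embryo and 2.26 in pupa, a ratio of 10.3-fold (4.43 to 29.4). A toll-like protein (TC004452) was also called there, with 13.5 RPKM in larva and 16.2 in adult, against 0.455 in embryo and 0.90 in pupa. Its ratio was 14.9-fold (7.64 to 33.4), so Toll names were called in both directions. On the non-feeding side were Toll-6 and a Toll-7-like protein, cell-surface receptors with roles in tissue patterning in Drosophila, and a C-type lectin. Toll-6 (TC004895) had 12.4 RPKM in larva and 4.67 in adult, against 72.2 in embryo and 91.4 in pupa, a ratio of 5.80-fold (4.92 to 6.87). The C-type lectin (TC010419) had 150.5 RPKM in larva and 77.3 in adult, against 968 in embryo and 367 in pupa, and its call was lost under median-ratio rescaling.

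The 756 feeding genes were often unequal between larva and adult. Those within 2-fold numbered 342 (45.2%), beside 64.5% of all tested genes. In 294 the larva was at least 2-fold above the adult, and in 120 the adult was above the larva. The median larva-minus-adult difference was 0.55 on log2(RPKM + 1), against -0.18 over all tested genes. The larva was at least 8-fold higher in 106 and the adult in 15. The 587 non-feeding genes were within 2-fold between embryo and pupa in 462 (78.7%), compared with 71.5% over all tested genes, and 86 were higher in the embryo and 39 in the pupa. These shares are a description, since the rule itself used the levels of all 4 libraries.

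**Figure D4:**
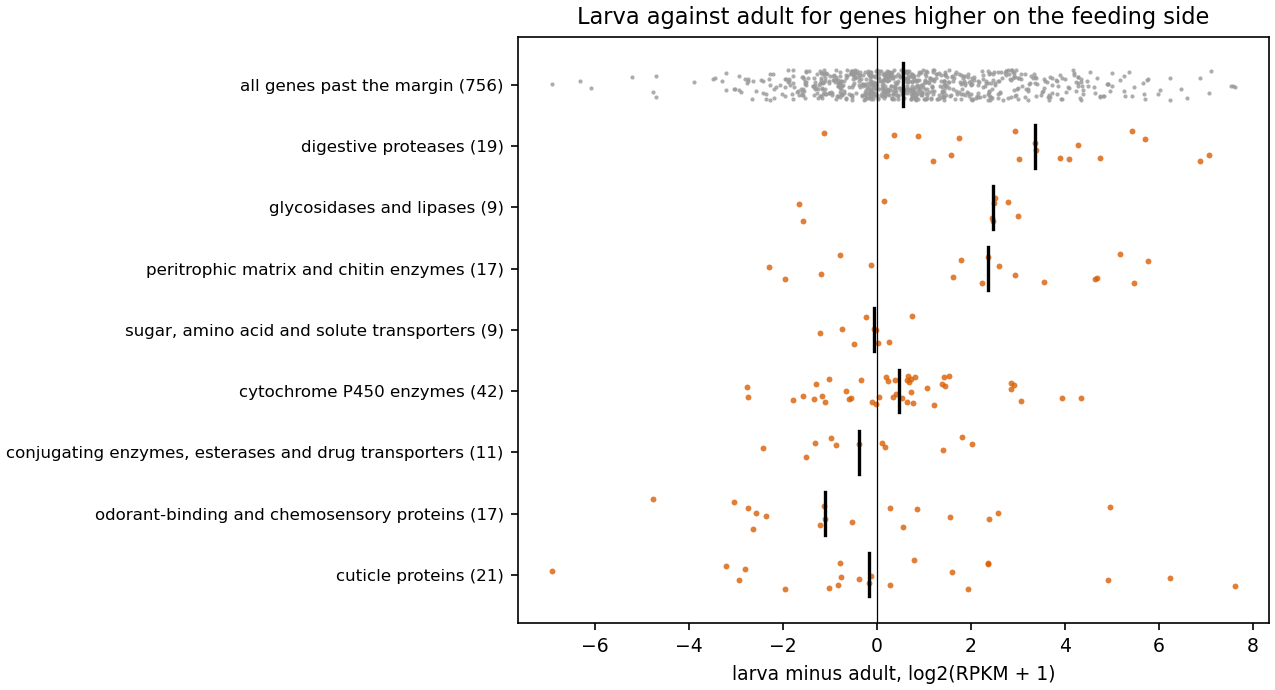
Difference of larva minus adult in log2(RPKM + 1) for genes called on the feeding side, by gene list with at least 9 calls and for all 756 genes; each point is 1 gene and the vertical bar is the median. Digestive proteases lie mostly on the larval side (15 of 19 at least 2-fold), transporters lie near 0 (8 of 9 within 2-fold), and odorant-binding and chemosensory proteins lie more on the adult side (9 of 17).

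On the non-feeding side the widest separation among named genes belonged to the Osiris family, membrane proteins of insects that are expressed in epidermis while cuticle is being laid down. Of 8 Osiris genes 3 were called on the non-feeding side (37.5%) and 0 on the feeding side, with a list median of -4.34. An Osiris gene (TC012679) had 13.7 RPKM in larva and 4.61 in adult, against 1092 in embryo and 1608 in pupa, a ratio of 79.5-fold (57.8 to 113). Osiris 16 (TC012680) had 1.43 RPKM in larva and 0 in adult, against 89.4 in embryo and 74.1 in pupa, a ratio of 51.9-fold (20.0 to 192). A further Osiris gene (TC011658) had 66.6 RPKM in larva and 5.85 in adult, against 3079 in embryo and 749 in pupa, a ratio of 11.2-fold (9.71 to 13.1). The embryo led in the last of these and the pupa in TC012679. The most abundant Osiris gene (TC011661) had 182 RPKM in larva and 4.24 in adult, against 4606 in embryo and 76.5 in pupa and was not called, because its larval level was above its pupal level. The 3 calls were kept under median-ratio rescaling.

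Several transcription factors of the moulting response, of which E78 and HR4 belong to the ecdysone and juvenile hormone list, were on the non-feeding side. E78 (TC003935), a nuclear receptor induced by ecdysone in Drosophila, had 4.04 RPKM in larva and 4.68 in adult, against 66.0 in embryo and 133 in pupa, a ratio of 14.1-fold (8.5 to 25.1). A hormone receptor in 46-like protein (TC008909), related to the ecdysone-induced receptor HR3 of Drosophila, had 40.6 RPKM in larva and 12 in adult, against 462 in embryo and 323 in pupa, a ratio of 7.95-fold (6.93 to 9.15). HR4 (TC000543) had 31.2 RPKM in larva and 26.4 in adult, against 97.3 in embryo and 108 in pupa, a ratio of 3.12-fold (2.70 to 3.61), and lost its call under median-ratio rescaling. Blimp-1 (TC014741), a zinc finger repressor of the same response, had 3.09 RPKM in larva and 7.51 in adult, against 52.0 in embryo and 114 in pupa, a ratio of 6.92-fold (5.33 to 9.12). That embryo and pupa stood above both eating stages in all 4 follows from the rule.

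The ecdysone and juvenile hormone list was even in its calls, with 3 of 32 (9.38%) on each side. Its median difference was 0.56, against -0.31 over all genes. Both feeding libraries were above both non-feeding ones in 15 genes, and the reverse held in 7, beside 14.8% and 36.9% of all genes. Matching on any name field gave 6 of 67 on each side, with a median of -0.11. Ecdysis triggering hormone (TC009466), the peptide that starts the moulting behaviour, was on the non-feeding side with 3.56 RPKM in larva and 2.75 in adult, against 11.8 in embryo and 13.3 in pupa. On the feeding side stood 3 genes annotated as Juvenile hormone-inducible proteins, of which TC009655 had 21.7 RPKM in larva and 11.8 in adult, against 0 in embryo and 0 in pupa, at least 15.4-fold higher where 3 reads stand for 0. The receptor gene E75 (TC012440) peaked in the pupa and was not called, with 68.0 RPKM in larva and 32.6 in adult, against 52.4 in embryo and 222 in pupa. Under median-ratio rescaling the list had 6 on the feeding side and 1 on the non-feeding side.

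Homeobox and patterning factors, which set body regions, gave 5 of 36 (13.9%) on the non-feeding side and 0 on the feeding side, with a median of -1.30. The non-feeding share over all genes was 4.43%. Matching on any name field gave 14 of 153 on the non-feeding side and 1 on the feeding side, with a median of -1.21. Invected (TC016368), a segment polarity factor, had 8.60 RPKM in larva and 5.24 in adult, against 125 in embryo and 229.5 in pupa, a ratio of 14.5-fold (10.4 to 20.7). Its paralog engrailed (TC009896) had 12.4 RPKM in larva and 3.59 in adult, against 36.2 in embryo and 25.8 in pupa. Distal-less (TC009351), which specifies limbs, had 8.39 RPKM in larva and 11.6 in adult, against 52.1 in embryo and 27.6 in pupa, and Sox21b (TC013165) had 2.70 RPKM in larva and 2.84 in adult, against 26.2 in embryo and 8.84 in pupa. In Sox21b the embryo was well above the pupa, and in invected the pupa was above the embryo. Under median-ratio rescaling 2 of the 5 stayed called.

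Wnt, Hedgehog, Notch and TGF-beta signalling gave 6 of 23 (26.1%) on the non-feeding side and 0 on the feeding side, and all 6 were Wnt pathway genes. Matching on any name field gave 9 of 65 on the non-feeding side and 0 on the feeding side, a smaller share. The median was -0.91 in the wider match and -1.19 in the list. A Wnt ligand annotated as Wnt8A (TC002386) had 1.07 RPKM in larva and 0 in adult, against 17.7 in embryo and 21.6 in pupa, a ratio of 16.5-fold (6.13 to 62.7). Wnt5 (TC009318) had 4.49 RPKM in larva and 4.62 in adult, against 74.2 in embryo and 45.9 in pupa, a ratio of 9.93-fold (5.95 to 17.7). Wingless (TC014084) had 3.56 RPKM in larva and 1.09 in adult, against 20.7 in embryo and 8.58 in pupa and Wnt10 (TC014086) had 3.35 RPKM in larva and 1.49 in adult, against 16.7 in embryo and 8.52 in pupa. The receptor frizzled 4 (TC006527) had 9.00 RPKM in larva and 1.84 in adult, against 34.1 in embryo and 20.5 in pupa, and wntless (TC005345), which carries Wnt ligands to the cell surface, had 22.0 RPKM in larva and 18.1 in adult, against 67.3 in embryo and 46.0 in pupa. The count was 2 under median-ratio rescaling and 2 with the 20 most abundant genes left out of the totals. Armadillo-1 (TC012388), the beta-catenin of the pathway, was not called and had 56.6 RPKM in larva and 52.0 in adult, against 137 in embryo and 103 in pupa, with both non-feeding libraries above both feeding ones by less than 2-fold.

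Axon guidance, adhesion and synapse genes gave 9 of 64 (14.1%) on the non-feeding side and 1 on the feeding side, with a median of -1.22. Cadherin 23 (TC001129), a cell adhesion protein, had 4.41 RPKM in larva and 3.43 in adult, against 48.0 in embryo and 45.3 in pupa, a ratio of 10.3-fold (8.24 to 12.9). Slit (TC000214), the midline repellent of growing axons, had 16.7 RPKM in larva and 22.1 in adult, against 97.0 in embryo and 67.3 in pupa, a ratio of 3.04-fold (2.66 to 3.47). Its receptor roundabout (TC002775) had 5.98 RPKM in larva and 3.87 in adult, against 13.0 in embryo and 15.4 in pupa, and the attractant netrin (TC002285) had 2.13 RPKM in larva and 1.74 in adult, against 10.6 in embryo and 7.33 in pupa. Fasciclin-2 (TC007253), an adhesion protein of axon bundles, had 34.8 RPKM in larva and 27.7 in adult, against 115 in embryo and 104 in pupa. Under median-ratio rescaling 4 of the 9 stayed called. The one member on the feeding side was an E-cadherin-like protein (TC000222) with 136 RPKM in larva and 6.24 in adult, against 0.253 in embryo and 0.614 in pupa, mostly in the larva.

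Among named genes outside the lists, 2 enzymes and a peptidase were also widely separated. Alcohol dehydrogenase (TC015712) had 2.53 RPKM in larva and 1.04 in adult, against 72.8 in embryo and 64 in pupa, a ratio of 25.3-fold (15.6 to 43.8). The serine proteinase stubble (TC030071-GA), which in Drosophila is needed for leg and bristle shape, had 7.95 RPKM in larva and 2.30 in adult, against 126 in embryo and 172 in pupa, a ratio of 15.8-fold (12.5 to 20.4). Its model carries a suffix of predictions that may overlap other models. Lactoylglutathione lyase (TC011665) had 50.9 RPKM in larva and 4.54 in adult, against 1975 in embryo and 413 in pupa, a ratio of 8.12-fold (6.76 to 9.82), highest in the embryo. Enhancer of split (TC005541), a repressor that Notch turns on, had 3.61 RPKM in larva and 1.39 in adult, against 65.0 in embryo and 30.4 in pupa, and the collagen gene TC002064 had 1.76 RPKM in larva and 2.80 in adult, against 46.3 in embryo and 21.4 in pupa.

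Several lists had few calls or none. The cytosolic ribosomal proteins had 0 of 58 called in either direction and a median of -0.70. Ribosomal protein S15Ae (TC012128) had 2838 RPKM in larva and 2573 in adult, against 5830.4 in embryo and 3192 in pupa, so the order of the sides held with the pupa little above the larva. Splicing factors had 0 of 28 called and a median of -0.74. Over all genes the median was -0.31. DNA replication and cell cycle genes had 0 of 50 called and a median of -0.36, which became 0.05 under median-ratio rescaling. Ovary and germline genes had 0 of 13 called, and their median of -0.34 became 0.09 under the same rescaling. Chromatin genes had 2 of 12 (16.7%) on the non-feeding side, beside 4.43% of all genes, and neither stayed called under that rescaling. Matching on any name field gave 3 of 129 chromatin genes on the non-feeding side and 5 on the feeding side. Sperm and cilia genes had 0 of 17 called. Heat shock proteins and chaperones had 3 of 35 (8.57%) on the feeding side, beside 5.70% of all genes. Matching on any name field gave 4 of 84 there and 2 on the non-feeding side. Heat shock protein 70 (TC010172), 1 of the 3, had 10.8 RPKM in larva and 12.5 in adult, against 3.33 in embryo and 3.09 in pupa.

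**Figure D5:**
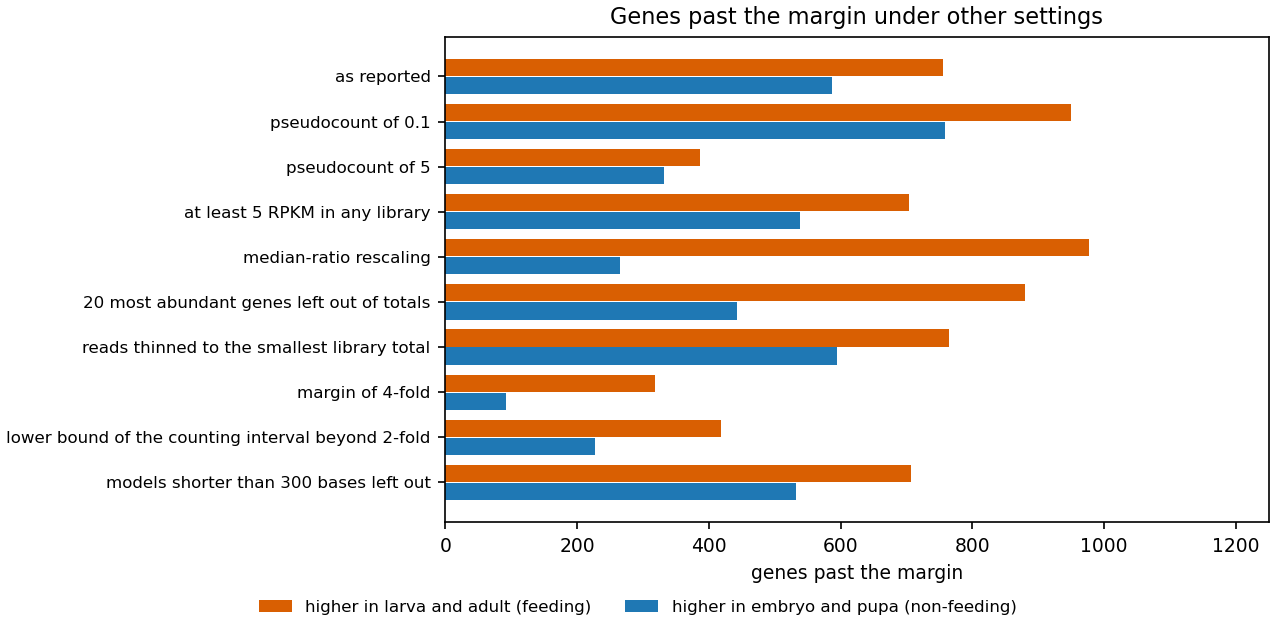
Number of genes called on the feeding side (larva and adult) and on the non-feeding side (embryo and pupa) as reported and under 9 other settings that use all 4 libraries and the lower-against-higher rule with a minimum fold. The feeding count ranges from 319 at 4-fold to 977 under median-ratio rescaling, and the non-feeding count from 93 at 4-fold to 758 with a pseudocount of 0.1.

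Coding lengths were similar, with a median of 996 bases for feeding genes and 1056 for non-feeding genes, against 1107 over all tested genes. Both libraries of the low side had 0 reads in 117 of the feeding genes (15.5%) and in 40 of the non-feeding genes (6.81%). At this depth a level of 0 is a limit of detection: 1 read in a model of 1 kilobase is 0.280 RPKM in the larva and 0.324 in the adult, against 0.308 in the embryo and 0.272 in the pupa. Informative protein names were carried by 29.1% of tested genes, by 298 of the feeding genes (39.4%) and by 150 of the non-feeding genes (25.6%), so the lists describe the named fraction of each side.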

How the data were processed

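Polyadenylated RNA of whole beetles was sequenced on an Illumina Genome Analyzer, per the labels' protocols: TRIzol extraction, DNase, oligo(dT) selection, random hexamers, and no step that marks the strand, so antisense transcripts cannot be told apart. Per the file headers, the authors deposited unique read counts per gene model, with the model's length, and RPKM computed from them. For the series as a whole SAMtools 0.1.19, BSMAP 2.73 and CASAVA 1.8.2 are named, per the submitters' processing notes. For RNA, the aligner, counter, build and gene set were not given in the sources used here. Therefore no coordinates or sequences are printed. An unlisted gene was taken as 0 reads.

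Genes with at least 1 RPKM in any library were compared on log2(RPKM + 1), where the added 1 shrinks the differences of genes with few reads. The deposited counts gave the intervals. For 0 reads a floor of 3 reads per library was used. A list's median is of the mean of larva and adult minus the mean of embryo and pupa. The 28 lists were matched by patterns on protein descriptions, hold 1246 genes and overlap in 17. Members and lists were chosen with earlier results of these data known.

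A fixed rule listed genes for naming. In each direction it took the 20 genes with the largest margin (informative name, at least 10 RPKM in both high libraries, at most 3 of one list). It also took the 5 with the largest lower-of-side RPKM, and in each list the 2 with the largest margin and the 2 most abundant. The text names only part of the genes so listed. Other called list members named beside them, the genes at the edge of the rule, numbered serine proteases and function terms were chosen after their values were seen. RefSeq identifiers matched 26.5% of genes, so a check of neighbouring genes is void and promoters were not searched. Other settings are given in the closing section. Scripts, tested on simulated data, ran on matplotlib 3.10.9, scipy 1.17.1, pandas 2.3.3 and numpy 2.4.6 in Python 3.11.15.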

Additional observations from a re-analysis of the deposited data

How the results depend on the processing

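A pseudocount of 5 left 387 genes on the feeding side and 332 on the non-feeding side. A 4-fold margin left 319 and 93, no overlap alone gave 1964 and 4888, a counting interval beyond 2-fold 419 and 228, and side means 2495 and 2337. Median-ratio rescaling left 266 non-feeding genes. Leaving out 1 library gave 948 to 2351 feeding genes and 1020 to 2466 non-feeding genes, since each side is then 1 library at least once. The 4-fold, no-overlap, interval, side-mean and one-library-out counts differ by construction.

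On the feeding side digestive proteases numbered 11 with a pseudocount of 5, 12 at 4-fold, 32 by no overlap, 32 by side means and 19 to 33 with 1 library left out. Matching on any name field gave 64 of 262 in place of 19 of 65, and 16 on the non-feeding side in place of 5. Peritrophic and chitin genes numbered 11 with a pseudocount of 5, 9 at 4-fold and 19 to 20 with 1 library left out. With any name field they numbered 26 of 69 in place of 17 of 35, and 1 on the non-feeding side in place of 0. P450 genes numbered 17 with a pseudocount of 5, 15 at 4-fold, 73 by no overlap, 25 by the interval, 80 by side means and 44 to 71 with 1 library left out. Cuticle genes numbered 11 at 4-fold, 32 by no overlap, 49 by side means and 26 to 42 with 1 library left out. Over all genes the feeding share was 14.8% by no overlap and 18.8% by side means.

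On the non-feeding side the Wnt, Hedgehog, Notch and TGF-beta list gave 2 with a pseudocount of 5, under median-ratio rescaling, without the 20 most abundant genes in the totals, at 4-fold and by the interval. It gave 19 by no overlap, 13 by side means and 7 to 13 with 1 library left out. With any name field it gave 9 of 65 in place of 6 of 23. The axon guidance, adhesion and synapse list gave 5 with a pseudocount of 5, 4 under median-ratio rescaling, 1 at 4-fold and 4 by the interval. It gave 42 by no overlap, 36 by side means and 15 to 35 with 1 library left out. With any name field it gave 28 of 275 in place of 9 of 64, and 5 on the feeding side in place of 1. Over all genes the non-feeding share was 36.9% by no overlap and 17.6% by side means. The causes of the scaling shifts were not tested.

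Of 128 called genes picked for naming, not all of which appear above, 13 lost the 2-fold margin under median-ratio rescaling. With the 20 most abundant genes left out of the totals 3 lost it, and 2 after thinning. By construction the first 2 settings cannot remove or turn a feeding call, so only non-feeding calls could be lost there. Over all genes 266 of 587 non-feeding calls stayed under median-ratio rescaling. These 3 settings turned the direction of none of the 128, which for feeding calls only thinning could have done. Leaving out 1 library cannot remove a call under a rule of lower against higher, so it is no check of one. No filter, a 5 RPKM filter, thinning to the smallest library total and leaving out models under 300 bases kept both overall counts within 1.5 times. No paired analysis was possible because each stage has 1 library. The depth of 3.09 to 3.67 M reads limits weak genes, receptors above all, and 1 library per stage leaves the spread between animals unmeasured.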

Other observations

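Numbered serine proteases and their inactive homologs were looked at after their values were seen, so the counts are descriptions and no support for the lists above. Of 86 genes annotated as serine protease P, 15 were higher on the feeding side and 8 on the non-feeding side. Of 57 annotated as serine protease homologs H, which keep the fold and lack catalytic residues, 20 were higher on the feeding side and 1 on the non-feeding side. Together they made up 35 of 143 (24.5%) and 9 of 143 (6.29%), against 5.70% and 4.43% over all genes. The members on the 2 sides differed in length: models on the feeding side had a median of 792 bases (534 to 2076), those on the non-feeding side 1158 bases (624 to 3744).

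On the feeding side 26 of the 35 were at least 2-fold higher in the larva and 3 in the adult. Serine protease P121 (TC010940) had 204 RPKM in larva and 25.9 in adult, against 0 in embryo and 0 in pupa, at least 22.1-fold higher where 3 reads stand for the 0 of a library. Serine protease H118 (TC010937) had 309.8 RPKM in larva and 23.8 in adult, against 0 in embryo and 0 in pupa, at least 20.0-fold higher by the same floor. P96 (TC009602), not one of these 3, had the adult above the larva by less than 2-fold. It had 51.1 RPKM in larva and 79.0 in adult, against 0.394 in embryo and 0.348 in pupa and a ratio of 129.7-fold (22.9 to 5159). On the non-feeding side P87 (TC008659) had 15.1 RPKM in larva and 1.21 in adult, against 139 in embryo and 169 in pupa, a ratio of 9.21-fold (7.81 to 10.9), and H51 (TC004622) had 10.5 RPKM in larva and 4.01 in adult, against 115 in embryo and 101 in pupa, a ratio of 9.64-fold (7.68 to 12.3). Since only unique reads were counted, near-identical members are undercounted.

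Several of the most abundant called genes carry no informative name. On the feeding side TC009334 had 4469.7 RPKM in larva and 2977 in adult, against 147 in embryo and 644 in pupa, a ratio of 4.63-fold (4.26 to 5.03), and TC002483 had 1571 RPKM in larva and 1363 in adult, against 2.33 in embryo and 14.1 in pupa, a ratio of 96.7-fold (72.8 to 131). On the non-feeding side TC011659 had 12.6 RPKM in larva and 5.17 in adult, against 1116 in embryo and 1475 in pupa, a ratio of 88.9-fold (62.4 to 131), as wide as in the Osiris genes. TC010421 had 325 RPKM in larva and 4.88 in adult, against 1094 in embryo and 1657 in pupa, almost none of it adult among the eating stages.

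The function terms in the files, 66 of them with at least 20 tested genes, were also counted after values were seen, beside 5.70% of all genes on the feeding side and 4.43% on the non-feeding side. Hydrolases acting on O-glycosyl bonds had 10 of 28 genes (35.7%) on the feeding side, polysaccharide binding 12 of 38 and oxidoreductase activity 35 of 133. Related terms were not all one-sided: peptidase activity had 8 of 40 on the feeding side and 4 on the non-feeding side, and endopeptidase activity 9 and 8 of 100. Transmembrane transporter activity had 10 of 35 genes (28.6%) on the feeding side and 0 on the non-feeding side, and ion transmembrane transporter activity 0 and 1 of 21. On the non-feeding side receptor activity had 5 of 33 genes (15.2%) and transcription factor activity 16 of 168 (9.52%), with 2 on the feeding side.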
